A study of Mus musculus with 4 samples.

Results

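Dynamins and clathrin endocytosis genes were examined exon by exon in the *Ptbp2* mutant brain. The 10 genes were *Dnm1*, *Dnm2*, *Dnm3*, *Ap2b1*, *Ap2a1*, *Clta*, *Cltb*, *Bin1*, *Amph* and *Itsn1*. Their exons were taken as trios, each a middle exon with its flanking exons, and named by matching the chromosome, the strand, the length of the middle exon and the lengths of both introns to mouse transcripts of GENCODE M21. The tables held 272 such trios of the 10 genes, with 204 distinct middle exons, out of 228333 trios in all. Of the 272 trios, 270 had at least 20 junction reads in both E18 libraries, 270 in both P1 libraries, and 271 at one stage or the other.

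The study followed splicing after loss of PTBP2, a neuronal RNA-binding protein that represses many exons until neurons mature. Polyadenylated RNA was sequenced as paired reads from 4 libraries, 1 per group, and no group had a replicate library. At E18 (embryonic day 18), whole brain of 2 Ptbp2-NesKO embryos was set against that of 2 wild-type littermates, with 1 library per genotype and no statement here of how the 2 brains were combined; at P1 (postnatal day 1), cortex of 1 Ptbp2-EmxKO animal was set against cortex of 1 wild-type littermate. In the NesKO, Nestin-Cre excised the floxed exon 4 of *Ptbp2* from neural progenitor cells and therefore from their progeny. In the EmxKO, Emx1-Cre removed it in projecting neurons of the forebrain, and all animals were of a mixed C57Bl/6 and 129S2 background. Stage, tissue, Cre line and library protocol (stranded at P1, not stranded at E18) changed together and cannot be told apart. Every test below compares the reads of 2 libraries, or of all 4 for a difference between the stages, and not the conditions. Intervals are 95% Wilson intervals that cover counting error only, and coordinates are those of the mm9 build.

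Clathrin-mediated endocytosis retrieves membrane and cargo from the cell surface, and at synapses it rebuilds vesicles after release. AP-2 adaptor subunits (*Ap2a1*, *Ap2b1*) gather cargo and clathrin at the membrane, clathrin light chains (*Clta*, *Cltb*) decorate the clathrin coat, and BAR-domain proteins and scaffolds (*Amph*, *Bin1*, *Itsn1*) bring in dynamin. Dynamins (*Dnm1*, *Dnm2*, *Dnm3*) are GTPases that cut the neck of the budding vesicle. *Dnm1* is the main dynamin of neurons, *Dnm2* is found in most cells, and several of these genes carry short exons that neurons include.

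The targeted exon was examined first. Exon 4 of *Ptbp2*, of 173 nt (chromosome 3 of mm9, 119455862 to 119456034), stood at a deposited PSI (percent spliced in, the share of transcripts that include the exon) of 0.1 in the NesKO and 99.9 in the E18 wild type. In the EmxKO cortex it was 15.9 and in the P1 wild type 67.5. Reads that skip the exon numbered 257 and 1 at E18, and 680 and 604 at P1, so that skipping reads were common in the P1 wild-type library also. Reads on distinct exon junctions came to 48239933 and 50074568 in the NesKO and wild type at E18, and to 82960442 and 83241630 in the EmxKO and wild type at P1. The median trio of the 10 genes had between 938 and 1855 junction reads per library, and at those medians 3 reads, the most that a count of 0 allows, make a share of 0.162 to 0.32%.

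In *Dnm1*, exons 9a and 9b, of which a transcript uses 1, encode alternative forms of one stretch of the protein's middle domain, in the stalk through which dynamins assemble. Both are coding, 139 nt long and on the minus strand of chromosome 2. Exon 9b (32190202 to 32190340) comes first in the transcript and exon 9a (32188586 to 32188724) second, as the study names them. The exon sequences are shown because a change from one to the other replaces one block of coding sequence by another of equal length. They were read 5′ to 3′ from the matched GENCODE M21 transcripts, and capitals mark the bases at which the members of a pair differ.

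Dnm1 exon 9b: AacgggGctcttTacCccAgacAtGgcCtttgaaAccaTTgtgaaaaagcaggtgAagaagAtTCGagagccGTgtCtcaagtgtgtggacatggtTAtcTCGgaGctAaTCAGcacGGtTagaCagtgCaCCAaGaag
Dnm1 exon 9a: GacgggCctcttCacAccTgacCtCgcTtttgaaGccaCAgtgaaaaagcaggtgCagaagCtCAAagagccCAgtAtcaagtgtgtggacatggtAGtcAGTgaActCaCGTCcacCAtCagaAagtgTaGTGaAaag
Dnm2 upstream exon of the pair: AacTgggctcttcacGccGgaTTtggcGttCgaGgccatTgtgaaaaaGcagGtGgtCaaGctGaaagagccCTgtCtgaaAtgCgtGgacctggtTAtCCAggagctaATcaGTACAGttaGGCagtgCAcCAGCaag
Dnm2 downstream exon of the pair: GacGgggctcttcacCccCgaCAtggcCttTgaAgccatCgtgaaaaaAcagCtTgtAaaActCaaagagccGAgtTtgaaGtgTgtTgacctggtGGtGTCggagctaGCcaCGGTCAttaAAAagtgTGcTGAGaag

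Exons 9a and 9b of *Dnm1* were identical at 100 of 139 positions, or 71.9%. The longest stretch they shared ran from position 78 to 96 of the exon, 19 bases counted from its 5′ end. *Dnm2* held a pair of the same length on chromosome 9, at 21283343 to 21283481 and 21284851 to 21284989 of the plus strand, and its members were identical at 68.3% of positions. Across the paralogs, *Dnm1* exon 9b was most like the upstream exon of *Dnm2*, at 79.1% of positions, while exon 9a matched that exon at 66.9% and the downstream exon of *Dnm2* at 72.7%. *Dnm3* had a single exon of 139 nt in the tables (chromosome 1, 164237999 to 164238137), which was identical to 9b at 69.8% of positions and to 9a at 64%.

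Since 1 of the pair is nearly always present, inclusion against skipping does not measure the choice between them: the deposited PSI of 9a was between 99.7 and 99.9 in all 4 libraries, with at most 3 reads that skip it. The mean reads on the junctions of 9a were therefore set against the same mean for 9b, and the exact reads behind each mean are given here. In the NesKO brain, exon 9a had 1800 reads on its junction with the upstream exon and 1740 on its junction with the downstream exon, and exon 9b had 105 and 166. In the E18 wild type, 9a had 555 and 528 reads and 9b had 1094 and 1303. The choice was inverted between these libraries: 9a led in the mutant and 9b in the wild type, on both junctions.

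In the EmxKO cortex, exon 9a had 864 and 1341 reads on its upstream and downstream junctions, and 9b had 192 and 284. In the P1 wild-type cortex, 9a had 238 and 451 and 9b had 464 and 727. Exon 9a thus made up 92.9% (91.6 to 94%) of the pair in the NesKO, 31.1% (29 to 33.3%) in the E18 wild type, 82.2% (80.1 to 84.2%) in the EmxKO and 36.6% (33.6 to 39.8%) in the P1 wild type. The mutant libraries did not overlap their wild types at either stage, and the wild types were the nearest to each other, at 31.1 and 36.6%, with intervals that just miss each other.

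The share of 9a was 61.8 points higher in the NesKO than in the E18 wild type, a log odds ratio (natural log) of 3.36 ± 0.103 (SE from the read counts), and 45.6 points higher in the EmxKO than in the P1 wild type, a log odds ratio of 2.08 ± 0.0984. Both differences passed Fisher's exact test, adjusted over the 4 tests of the *Dnm1* and *Dnm2* pairs (at P1, adjusted p = 2.5e-111, and at E18 a p too small for the program to write). The log odds ratio at E18 exceeded that at P1 by 1.28 ± 0.142 (adjusted p = 4.3e-19, Wald chi-square test of the difference, adjusted over the pairs of *Dnm1* and *Dnm2*). The tables list some of these junctions more than once with unequal counts: the junction of 9b with the upstream exon had 105 reads in the NesKO in the trio centred on 9b and 327 in the trio centred on the upstream exon. Taken from the latter trios, the share of 9a was 86.5% and 35.8% at E18 and 72.8% and 38.3% at P1.

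The homologous pair of *Dnm2* was counted in the same way. The downstream exon made up 82% (77.6 to 85.6%) of the pair in the NesKO and 83.3% (79 to 86.8%) in the E18 wild type, on means of 288.5 reads in both and 63.5 and 58 reads for the upstream exon. In the EmxKO it made up 94.7% (92.2 to 96.4%) and in the P1 wild type 93.9% (91.4 to 95.8%). Mutant and wild type overlapped at each stage (adjusted p = 0.69 in both, Fisher's exact test), with log odds ratios of -0.09 ± 0.199 at E18 and 0.13 ± 0.279 at P1, so that a difference was not detectable at this depth. As listed in the trios centred on the exon before the pair, the share was 71.7% in the NesKO and 79.7% in its wild type (unadjusted p = 0.038, Fisher's exact test). In the trios centred on the exon after the pair it was 96% in the EmxKO and 93% in its wild type (unadjusted p = 0.022, Fisher's exact test), and at each stage the listings on the other side of the pair gave a difference of the opposite sign.

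**Figure D1:**
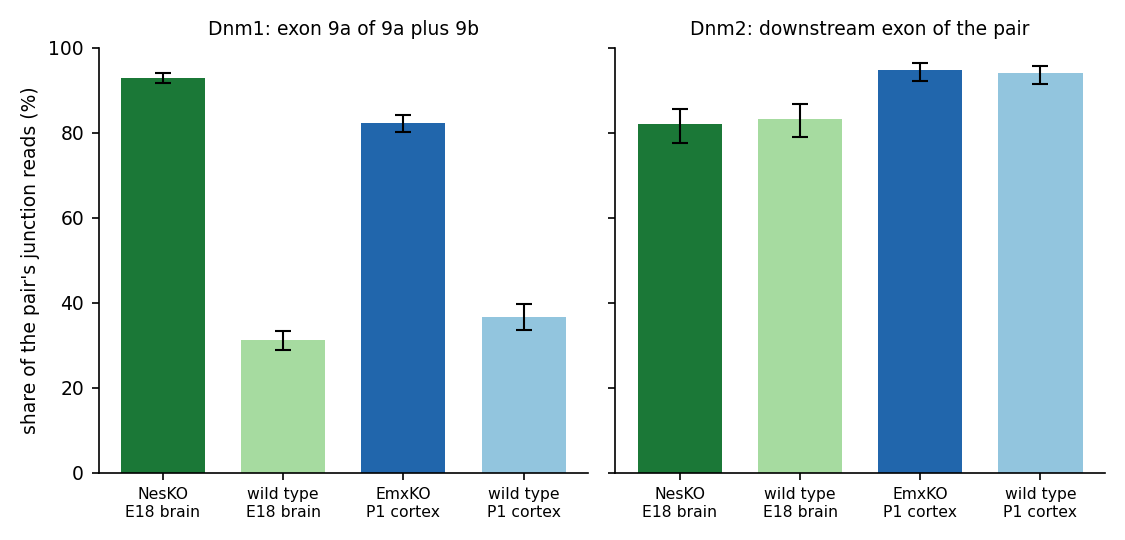
Share of the junction reads of each mutually exclusive pair (percent, vertical axis) that belongs to *Dnm1* exon 9a (left) or to the downstream 139-nt exon of *Dnm2* (right), in the 4 libraries, with 95% Wilson intervals as bars. Exon 9a takes 92.9 and 82.2% in the mutants and 31.1 and 36.6% in the wild types, while the intervals of the *Dnm2* pair overlap within each stage.

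Most trios of the 10 genes were listed at nearly the same inclusion in mutant and wild type. Of the 270 trios tested at each stage, 233 at E18 and 238 at P1 differed by under 1 PSI point, and 236 and 238 had a deposited PSI of at least 90 in both libraries. The trios under 1 point include 3 at E18 and 4 at P1 that were listed at 0 in both libraries. The matching shares over all trios are not given here, so these counts set the 10 genes apart from no others. A trio was called where the deposited PSI differed by at least 10 points. At E18, 13 of 270 trios (4.81%) were called, 11 of them higher in the NesKO, against 2.4% of the 159345 trios tested in all. At P1, 9 of 270 (3.33%) were called, 4 of them higher in the EmxKO, against 1.52% of 159174. The median difference was 0 points at both stages, over the 10 genes and over all trios alike.

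Calls backed by the reads were fewer. Some calls also had an adjusted p below 0.05 (Fisher's exact test of inclusion and skipping reads, Benjamini-Hochberg over all trios). With this demand, 6 trios of the 10 genes (2.22%) remained at E18 and 3 (1.11%) at P1, against 0.158% and 0.2% of all trios. The cassette-labelled trios, 27 of the 10 genes at each stage, held most of them. At E18, 7 of the 27 were called higher in the NesKO (25.9%, against 7.42% of 7935 cassette-labelled trios in all) and 1 was called lower (3.7%, against 4.12%). At P1, 3 of 27 were called higher in the EmxKO (11.1%, against 7.05% of 8166) and 0 lower (against 2.76%). Their median difference was 0.6 points at both stages, beside 0 and 0.2 points over all cassette-labelled trios. The 27 trios covered 22 distinct exons. The 54-nt exon of *Cltb* was called in 2 trios with the same junction reads at both stages. At E18 the 36-nt exon of *Clta* was likewise called in 2 trios. The 3 calls at P1 were the *Cltb* exon and the 66-nt exon of *Ap2a1*.

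Both clathrin light chain genes, *Clta* and *Cltb*, carry an exon of 54 nt, and *Clta* a second of 36 nt. These are the inserts that distinguish the neuronal forms of the light chains. The 54-nt exons of *Cltb* (chromosome 13, 54698387 to 54698440, minus strand) and *Clta* (chromosome 4, 44043087 to 44043140, plus strand) are shown together because they are homologous, with capitals at the 17 of 54 positions that differ.

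Cltb exon of 54 nt: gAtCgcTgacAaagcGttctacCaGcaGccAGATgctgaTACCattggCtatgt
Clta exon of 54 nt: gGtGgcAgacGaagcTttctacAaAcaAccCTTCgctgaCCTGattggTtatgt
Clta exon of 36 nt: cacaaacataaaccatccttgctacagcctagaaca

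The 54-nt exon of *Cltb* had a deposited PSI of 84.1 in the NesKO, 63.7 in the E18 wild type, 59.0 in the EmxKO and 35.6 in the P1 wild type. Reads that skip it numbered 698 and 1868 at E18 and 1285 and 1627 at P1, among 5369 and 5840 junction reads at E18 and 4066 and 2943 at P1. It was the largest change of *Cltb* at both stages, 20.4 points at E18 (adjusted p = 7.8e-103, Fisher's exact test) and 23.4 points at P1 (adjusted p = 3e-58), and the other trio of the same exon gave 19.8 and 24.1 points. The EmxKO level lay close to that of the E18 wild type, and the P1 wild type was the lowest of the 4.

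In *Clta*, the homologous 54-nt exon stood at 85.7 in the NesKO, 83.9 in the E18 wild type, 86.8 in the EmxKO and 85.9 in the P1 wild type. On the junction reads alone it was at 79.6% (78.2 to 80.9%) against 75.5% (74.2 to 76.7%) at E18, a small rise (adjusted p = 0.0082, Fisher's exact test) that was under 10 points, and at 84% and 81.9% at P1 (adjusted p = 1). The 36-nt exon of *Clta* (44044272 to 44044307) showed a PSI of 22.6 in the NesKO, 12.2 in the E18 wild type, 29.9 in the EmxKO and 24.4 in the P1 wild type. It rose by 10.4 points at E18 (adjusted p = 4.8e-09, Fisher's exact test) and was 5.5 points higher at P1 (adjusted p = 0.015, under the 10 points of a call). From the junction reads, its intervals were 17.4 to 21.4% and 8.5 to 11.8% at E18, and 22.2 to 25.3% and 17.8 to 20.8% at P1, so the libraries of each stage stood apart.

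AP-2 subunits each held 1 cassette-labelled exon, and both exons had a higher PSI in both mutant libraries. The exons, of 66 nt in *Ap2a1*, the large alpha subunit (chromosome 7, 52158832 to 52158897, minus strand), and of 42 nt in *Ap2b1*, the beta subunit (chromosome 11, 83178297 to 83178338, plus strand), are wholly coding, and their lengths keep the reading frame. They are shown as the sequences that more transcripts carried in the mutants.

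Ap2a1 exon of 66 nt: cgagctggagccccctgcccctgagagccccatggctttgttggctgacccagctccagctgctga
Ap2b1 exon of 42 nt: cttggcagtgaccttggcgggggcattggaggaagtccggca

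The *Ap2a1* exon showed a PSI of 92.1 in the NesKO, 80.9 in the E18 wild type, 93.2 in the EmxKO and 78.1 in the P1 wild type. Both mutants were above 90 and both wild types near 80. Skipping reads numbered 23 and 47 at E18 and 85 and 184 at P1. At P1 it rose by 15.1 points (adjusted p = 4.8e-18, Fisher's exact test). At E18 the difference of 11.2 points was called on its size, and the intervals from the junction reads did not overlap (84.8 to 92.9% against 69.3 to 81.3%), but the adjusted p over all trios was 0.076.

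The *Ap2b1* exon showed a PSI of 96.4 in the NesKO, 87.9 in the E18 wild type, 94.5 in the EmxKO and 88.2 in the P1 wild type. Its differences of 8.5 points at E18 and 6.3 points at P1 were under 10 points, so it was not called, although the reads distinguished the libraries at both stages (adjusted p = 4.8e-09 and 1e-08, Fisher's exact test). Skipping reads numbered 34 among 1214 in the NesKO and 162 among 1768 in its wild type, and 115 among 3219 in the EmxKO and 183 among 2303 in its wild type.

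Further exons of the dynamins lay outside the mutually exclusive pairs. Near the 3′ end of *Dnm1*, where annotated transcripts end in different last exons, an exon of 37 nt (chromosome 2, 32165971 to 32166007, partly coding or untranslated depending on the transcript) showed a PSI of 87.3 in the NesKO, 63.6 in the E18 wild type, 54.9 in the EmxKO and 55.9 in the P1 wild type. In the trio centred on this exon the NesKO alone stood apart, with 21 skipping reads among 234 against 57 among 208 in its wild type. The junction that skips the exon, across an intron of 3062 nt, was also listed in a trio centred on the preceding exon. Among the listed junctions that leave the preceding exon, it took 22 of 143 reads in the NesKO and 43 of 169 in its wild type. These shares were 15.4% (10.4 to 22.2%) and 25.4% (19.5 to 32.5%), lower in the NesKO but with overlapping intervals. The PSI of the 37-nt exon rose by 23.7 points at E18 (adjusted p = 0.0021, Fisher's exact test) and differed by -1.0 points at P1 (adjusted p = 1). At P1 its inclusion junctions went in opposite directions. The upstream junction had 48 reads in the EmxKO and 82 in its wild type, and the downstream junction had 169 and 115. The difference between the stages had an unadjusted p of 0.0015, and 0.76 after adjustment over all trios. The intron of 1386 nt after the 37-nt exon was itself listed as a retained intron. Its PSI was 93 in the NesKO, 96 in the E18 wild type, 64.4 in the EmxKO and 73.5 in the P1 wild type. The PSI of the 37-nt exon therefore does not give its share among all *Dnm1* transcripts. A separate exon of 135 nt (32165413 to 32165547) was at 35.4 and 20.8 at E18 and 15.7 and 13 at P1, on 54 junction reads in each E18 library. A stretch of 850 nt labelled as an alternative 3′ splice site (32165158 to 32166007), which covers both exons, was at 53.6 and 37.4 at E18 and 25.5 and 22.8 at P1. Both were called at E18, but their intervals from the junction reads overlapped and their adjusted p was 1 (Fisher's exact test).

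Short exons of 12 nt were found in all 3 dynamins. The 12-nt exon of *Dnm2* (chromosome 9, 21295102 to 21295113, plus strand, ggggagaTCTTg, with the letters TCTT in capitals as a pyrimidine motif of the kind that PTB proteins bind) showed a PSI of 56.0 in the NesKO, 70.3 in the E18 wild type, 44.5 in the EmxKO and 45.7 in the P1 wild type. Its difference of -14.3 points at E18 was called on size, but the intervals from the junction reads overlapped (34.7 to 51.6% against 49.4 to 67.2%), and the adjusted p was 1. In *Dnm3* the 12-nt exon (chromosome 1, from 164005906) stood at 88.8, 92.9, 87.0 and 86.6 in the NesKO, E18 wild type, EmxKO and P1 wild type, and no library stood apart from its wild type. *Dnm1* held a cassette-labelled exon of 12 nt (32178699 to 32178710), listed at 99.9 and 99.8 at E18 and 99.9 and 99.5 at P1. It had 0 reads on its junction with the upstream exon in all 4 libraries, so its listed level rested on the downstream junction. Another *Dnm1* exon of 12 nt (32170856 to 32170867) was listed at 99.9 in all 4 libraries.

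Among the BAR-domain proteins and the scaffold, calls were made in *Amph* and *Itsn1*. The 123-nt exon of *Amph*, amphiphysin (chromosome 13, 19216895 to 19217017, plus strand), was less included in the NesKO. In the trio with the call, PSI was 84.4 in the NesKO, 96.9 in the E18 wild type, 92.6 in the EmxKO and 97.1 in the P1 wild type, with 17, 2, 50 and 16 skipping reads. It fell by 12.5 points at E18 (adjusted p = 0.022, Fisher's exact test) and was 4.5 points lower at P1 (adjusted p = 0.15). The trio of the same exon with the most reads gave 89.3 and 96.0 at E18 (adjusted p = 0.61, Fisher's exact test), and 95.2 and 98.0 at P1, a difference in the same direction but under 10 points.

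The 15-nt exon of *Itsn1*, intersectin 1, is a microexon of neurons that lies in the first SH3 domain (chromosome 16, 91842873 to 91842887, plus strand, gttaaaggggaatgg). Its PSI was 30.3 in the NesKO, 34.2 in the E18 wild type, 18.8 in the EmxKO and 10.4 in the P1 wild type. The order was the wild type above the mutant at E18, with overlapping intervals from the junction reads (16.4 to 23.5% against 19.1 to 25.5%), and the mutant above the wild type at P1, with intervals apart (10 to 14% against 5.1 to 8.1%). The P1 difference of 8.4 points had an adjusted p of 0.0066 (Fisher's exact test) and was not called on size. It rested on the upstream junction, with 226 reads in the EmxKO and 112 in the P1 wild type. The downstream junction had 17 and 16 reads and showed no such rise. The difference between the stages had an unadjusted p of 0.0002, and 0.16 after adjustment over all trios.

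A stretch of 249 nt in *Itsn1*, labelled as an alternative 3′ splice site (91870438 to 91870686), was called at E18. It was at 85.1 in the NesKO, 72.4 in the E18 wild type, 74.6 in the EmxKO and 80 in the P1 wild type, higher in the mutant at E18 and lower at P1. On the junction reads alone the levels were 96.9%, 94.1%, 94.8% and 97.4%, with overlapping intervals at E18 (adjusted p = 1, Fisher's exact test) and intervals apart at P1 (adjusted p = 0.11). The difference between the stages had an unadjusted p of 0.00048, and 0.34 after adjustment over all trios. An *Itsn1* exon of 122 nt (91887645 to 91887766) was called at P1, with the EmxKO at 88 and its littermate at 67.7, but no library held a read that skips it (adjusted p = 1, Fisher's exact test), and it was at 99.9 in both E18 libraries.

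In *Bin1*, amphiphysin 2, none of the 24 trios was called at either stage. Its cassette-labelled exon with the largest difference, of 129 nt (chromosome 18, 32585878 to 32586006), showed a PSI of 94.3 in the NesKO, 96.7 in the E18 wild type, 96.6 in the EmxKO and 97.6 in the P1 wild type. The other cassette-labelled trio of this exon gave 97.6 and 96.8 at E18, the opposite direction, and 98 and 98.4 at P1. The study lists *Bin1* among known PTB targets with altered splicing, without naming the exon, and also used arrays and RT-PCR. An exon of 93 nt was at 87.6 and 87.0 at E18 and 94.2 and 94.4 at P1, so that its level differed more between the stages than between mutant and wild type. An exon of 108 nt was listed at 0 in all 4 libraries although every one of its junction reads was an inclusion read, 30 to 518 per library, so its listed PSI gives no level.

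**Figure D2:**
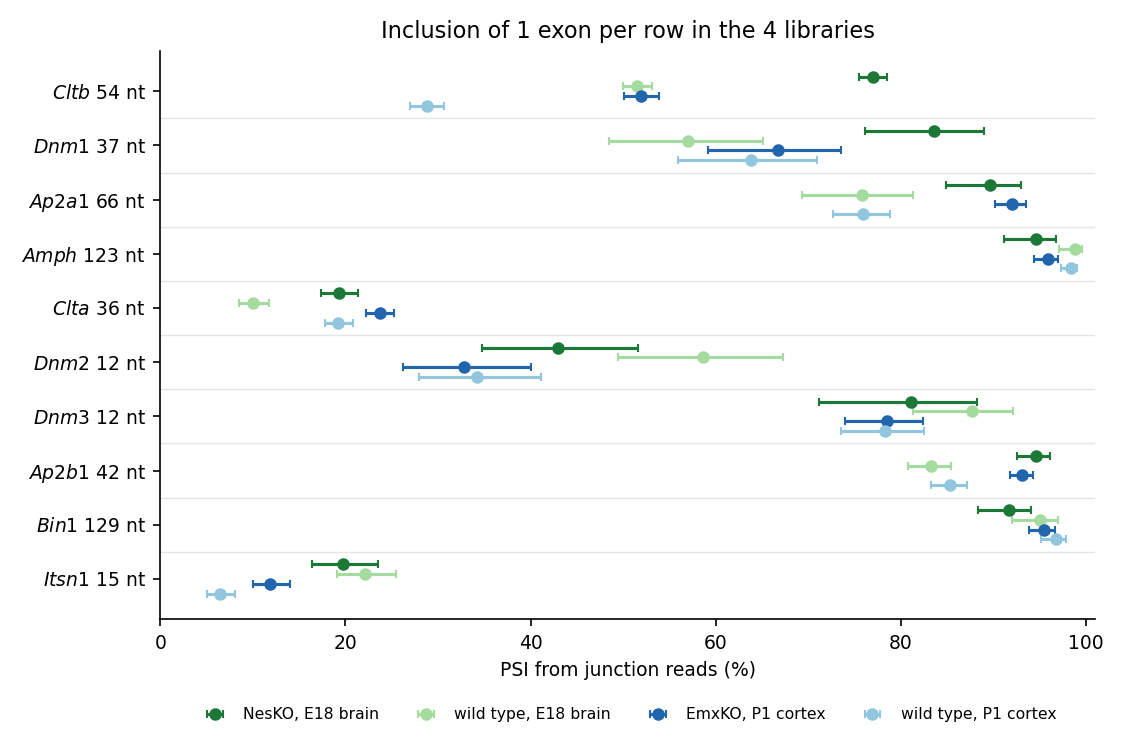
PSI from junction reads (percent, horizontal axis) for 10 exons of the 10 genes, 1 exon per row, with 1 point per library and 95% Wilson intervals as bars. The points of mutant and wild type lie apart at both stages for the exons of *Cltb*, *Ap2a1*, *Clta* and *Ap2b1* (higher in the mutants) and for the *Amph* exon (lower), while the *Dnm1* exon of 37 nt lies apart at E18 alone and the *Itsn1* exon at P1 alone.

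Several calls rested on no skipping read at all. An exon of 216 nt in *Dnm1* (chromosome 2, 32167647 to 32167862) was the middle exon of 5 trios, which leave it by 4 different downstream introns. The 4 libraries together held 0 reads that skip it, yet the deposited PSI differed by -44.9 to -16 points between the EmxKO and the P1 wild type in all 5, and by 20.8 points between the NesKO and its wild type in 1 of them. Of the reads on the 4 downstream junctions, the intron of 1639 nt took 96 of 143 reads in the NesKO, 94 of 169 in the E18 wild type, 89 of 148 in the EmxKO and 134 of 241 in the P1 wild type. As shares these were 67.1%, 55.6%, 60.1% and 55.6%, and the intervals of mutant and wild type overlapped at both stages. The shares used the higher listing of the 1639-nt intron. Another trio listed that intron with 66, 61, 56 and 95 reads, in the same order of libraries. The 169-nt exon of *Ap2a1* at E18 (16.7 points) and a 122-nt exon of *Itsn1* at P1 (20.3 points) were likewise called with no skipping read at their stage, and none of these calls had an adjusted p below 1.

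**Figure D3:**
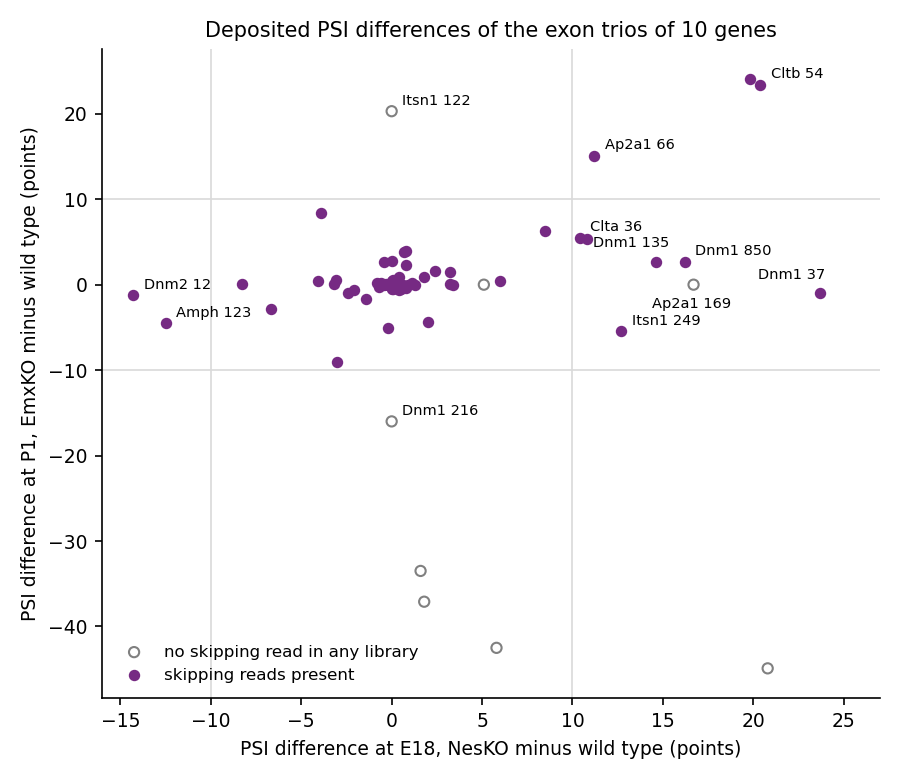
Difference in deposited PSI, mutant minus wild type in points, at E18 (horizontal axis) and P1 (vertical axis), 1 point per trio of the 10 genes past the read minimum at both stages, with called exons named by gene and length in nt and grey lines at 10 points. Filled points have skipping reads and open points have none, and the large differences at P1 of the *Dnm1* exon of 216 nt are all open points, while the *Cltb* and *Ap2a1* exons lie beyond 10 points on both axes.

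Among the 269 trios of the 10 genes tested at both stages, 0 had an adjusted p below 0.05 for a difference between the stages (Wald chi-square test on the log odds ratios), against 0.0818% of 151602 trios in all. In the same test, 9 trios in 7 exons had an unadjusted p below 0.05. The share of all trios at that unadjusted threshold is not given here, so this count is not a result about these genes. The mutually exclusive *Dnm1* pair was tested apart, on the choice between its exons, as given above.

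The named exons were mostly short and kept the reading frame. Of the 10 exons plotted above, 1 per gene, 9 had a length divisible by 3, the exception being the 37-nt exon of *Dnm1*. Over all cassette-labelled middle exons past the minimum, 50.3% of 7215 had such a length, and in the 10 genes 16 of 22 (72.7%). The median length was 39.5 nt for the named exons, 54 nt for the cassette-labelled exons of the 10 genes and 102 nt for all. A swap of 9a for 9b, both of 139 nt, also leaves the frame unchanged. The letters TCTT or CTCT were searched on the transcribed strand, with overlapping matches counted. Each of 9a, 9b and both *Dnm2* exons held CTCTT once, which contains both motifs, and the 139-nt exon of *Dnm3* held neither, while 68.1% of 827 cassette-labelled exons of like length (within 10%) held at least 1. The *Amph* exon held CTCT once, as 63.3% of 984 exons of like length held a motif. The 12-nt exon of *Dnm2* held TCTT, where 6.06% of 33 exons of like length, this exon among them, held either motif. Neither motif was found in the 54-nt exons of *Cltb* and *Clta* (35.5% of 403 held one), the 36-nt exon of *Clta* (28.2% of 213), the *Ap2a1* exon (42.4% of 621), the *Ap2b1* exon (31% of 248), the 15-nt *Itsn1* exon (5.88% of 34) or the 37-nt exon of *Dnm1* (30% of 170). Intron sequence was not examined.

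Reads on the distinct junctions of each gene gave a level per library, as reads per 1000000 junction reads, with no replicate to give an error and no test. *Dnm1* was at 759 in the NesKO, 765 in the E18 wild type, 315 in the EmxKO and 248 in the P1 wild type, so that its exon choice differed at E18 at nearly equal levels of the gene. *Cltb* was at 165 and 166 at E18 and 145 and 109 at P1, and *Clta* at 311 and 313 at E18 and 269 and 248 at P1. *Dnm3* had the lowest ratio of mutant to wild type at E18, 0.676 (62 against 91.7), and *Amph* the next, 0.777. At E18 the 10 ratios had a median of 0.985, beside 0.965 over 11440 genes with at least 100 reads in both libraries. At P1 all 10 ratios were above the median of 1.03 over 11387 genes, from 1.04 for *Itsn1* to 1.33 for *Cltb* (median 1.26), and 6 of them were above the upper quartile of 1.19. In bulk tissue, fewer cells of a type and less RNA per cell cannot be told apart.

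**Figure D4:**
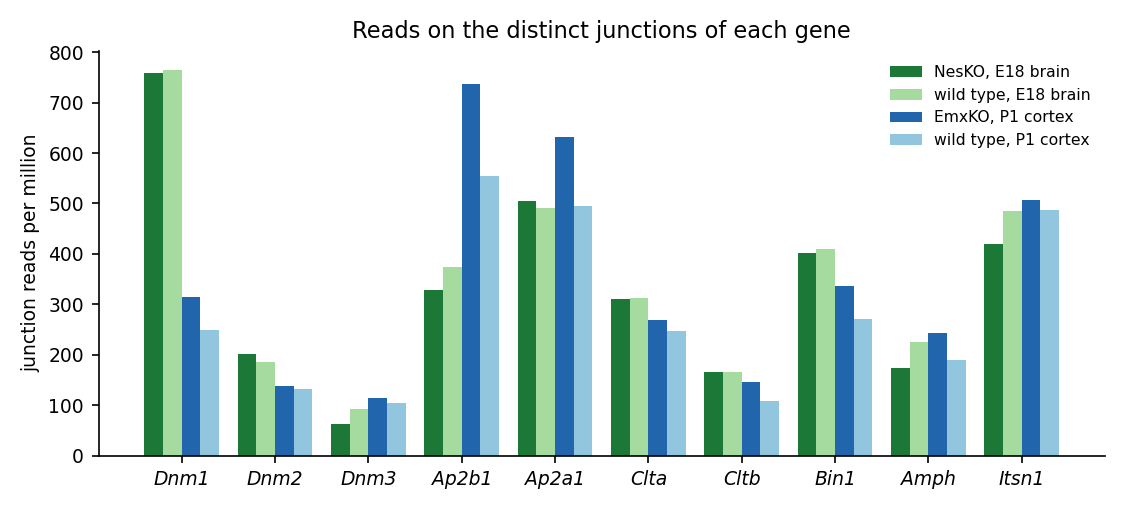
Reads on the distinct junctions of each gene per 1000000 junction reads (vertical axis) in the 4 libraries, 1 bar per library and no error bars since each group has 1 library. Bars compare libraries within a gene and not genes with each other, since genes differ in the number of junctions, and in P1 cortex the EmxKO bar is above the wild-type bar for all 10 genes, by 1.04 to 1.33 times.

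Other genes of clathrin-mediated endocytosis, 40 genes from a list of 41, held 902 trios. At E18, 22 of 820 trios (2.68%) were called against 2.4% of all trios, 14 higher and 8 lower in the NesKO, and at P1, 17 of 838 (2.03%) against 1.52%, 10 higher and 7 lower in the EmxKO. The largest was an alternative 3′ splice site of 15 nt in *Snap91*, the clathrin assembly protein AP180 of synapses (chromosome 9, from 86676539), with a PSI of 2.9 in the NesKO, 67.0 in the E18 wild type, 10.6 in the EmxKO and 51.9 in the P1 wild type. It fell by 64.1 points at E18 (adjusted p = 1.5e-41, Fisher's exact test) and fell by 41.3 points at P1 (adjusted p = 2.1e-25). On the junction reads alone the changes in *Snap91* were smaller, from 26.3% (22 to 31.1%) in the E18 wild type to 0% (0 to 0.627%) in the NesKO and from 12.1% (9.97 to 14.7%) in the P1 wild type to 1.01% (0.601 to 1.68%) in the EmxKO. In *Pacsin2*, a membrane-bending protein that binds dynamin, an exon of 123 nt showed a PSI of 56.8 and 77.6 at E18 (adjusted p = 0.00068, Fisher's exact test) and 62.2 and 78.6 at P1 (adjusted p = 1). A 24-nt exon of *Synj1*, the synaptic phosphatase synaptojanin 1, was at 80.2 and 74.9 at E18 (adjusted p = 1) and rose at P1, 81.1 against 64.8 (adjusted p = 0.00021, Fisher's exact test). The exon of 111 nt in *Cttn*, the actin-binding protein cortactin, was at 63.7 and 68.0 at E18 (adjusted p = 1) and rose at P1, 33.1 against 22.6 (adjusted p = 0.00038, Fisher's exact test). Neither the 65-nt exon of *Dnajc6*, auxilin (83.5 and 65.1 at E18, 81.6 and 81.5 at P1), nor a 59-nt alternative 3′ splice site of *Pacsin1* (93.7 and 96.0 at E18, 85.1 and 72.2 at P1) had an adjusted p below 0.05 at either stage.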

How the data were processed

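Per the labels and the study's methods, the authors mapped reads to a database of exon trios and duos with SpliceTrap, and their processing notes also name the mm9 build, CASAVA, TopHat and Cufflinks. Each deposited table (1 per library) gives, per trio, an inclusion ratio before and after correction (a fraction), the read counts of 3 junctions, and the coverage of the exons, a signal that was not used here. PSI is 100 times the deposited ratio after correction. Exon starts were raised by 1 to count from 1. Junctions in a table follow genome order.

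Trios were named from GENCODE M21, 255 of 272 by exon and intron lengths and 17 by exon ends shared with a named trio. PSI from junction reads was the mean of both inclusion junctions over that mean plus skipping reads. For alternative splice sites only the junction that spans an intron was used, a choice made after the tables were seen. Libraries were compared by two-sided Fisher's exact tests on rounded reads, adjusted by Benjamini-Hochberg over all trios with at least 20 junction reads in both. Log odds ratios had 0.5 added to each count. Python 3.11.15, pandas 2.3.3 and scipy 1.17.1 were used, and the tests were tested on simulated data.

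Named exons were the *Ptbp2* and *Dnm1* exons, every exon called at 10 points with non-overlapping intervals (1 trio per exon, that with the most reads), otherwise the cassette-labelled exon of a gene with the largest difference, and 6 exons of the other genes. Others named were chosen after their values were seen. The genes, lists and tests were chosen with earlier results of these data known. Levels are reads on distinct junctions of cassette and constitutive trios, each junction at its highest listed count.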

Additional observations from a re-analysis of the deposited data

Results flagged for a closer look

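The change in the choice between exons 9a and 9b of *Dnm1* differed between the stages: the log odds ratio at E18 (NesKO against wild type) exceeded that at P1 (EmxKO against wild type) by 1.28 (SE 0.142, adjusted p = 4.3e-19, Wald chi-square test). In each of the 5 other ways of counting the reads of the pair the difference was also positive, from 0.98 to 1.35. Stage, tissue, Cre line and protocol cannot be told apart, and *Ptbp2* exon 4 had PSI values of 0.1 (NesKO), 99.9 (E18 wild type), 15.9 (EmxKO) and 67.5 (P1 wild type, with 604 skipping reads). Its part in the result was not tested.

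Among the other genes, the 111-nt exon of *Cttn* differed between the stages, with a log odds ratio at E18 minus that at P1 of -0.68 (adjusted p = 0.0072 over all trios, Wald chi-square test).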

How the results depend on the processing

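The rise of exon 9a held in direction and test under all 5 other ways of counting (2 of them chosen after seeing the data), from 50.7 to 62.8 points at E18 and from 34.5 to 47.9 points at P1. In the 10 genes, the 13 calls at E18 became 3 at 20 points, 6 with an adjusted p below 0.05 and 8 over cassette-labelled trios; the 9 calls at P1 became 3 from junction reads alone, 3 with an adjusted p below 0.05, 3 over cassette-labelled trios, 3 over trios with a skipping read (chosen after seeing the data) and 4 with 1 trio per middle exon, since 5 of the 9 are trios of 1 *Dnm1* exon. Other minimums (10, 50 or none) moved neither count by over 1.5 times. For the other genes, the 22 calls at E18 became 35 with no minimum, 12 at 20 points, 2 with an adjusted p below 0.05 and 9 over cassette-labelled trios, and the 17 at P1 became 3, 4 and 6 under the last 3 of these. The 2 were 0.244% of 820 trios, against 0.158% of all trios, and the 4 at P1 were 0.477% of 838, against 0.2%. Of their cassette-labelled trios, 6 of 45 were higher at E18 (13.3%, against 7.42% of all) and 3 lower (6.67%, against 4.12%). At P1, 4 of 51 were higher (7.84%, against 7.05%) and 2 lower (3.92%, against 2.76%). Shares over all trios under the remaining settings are not given here for either set of genes, so those counts are not a result about them. The *Dnm2* pair, whose main differences were -1.3 points at E18 and 0.72 at P1, changed sign at E18 on the downstream junction (1.95 points) and in the trios centred on the exon after it (3.12), and at P1 on the upstream junction (-1.67) and in the trios centred on the exon before it (-0.97). The other of these added listings passed an unadjusted Fisher's exact test, at -8.03 points at E18 (p = 0.038) and 2.98 at P1 (p = 0.022). Of 64 recomputed PSI differences of named exons, 61 stayed on their side of 10 points: *Clta* at E18 went to 9.31 points from junction reads, *Ap2b1* at E18 to 11.3 and *Synj1* at E18 to 15.7. *Snap91* stayed past 10 points, at -26.3 and -11.1 from junction reads against -64.1 and -41.3 as deposited. Adjusted over cassette-labelled trios alone (chosen after seeing the data), the *Ap2a1* exon at E18 had p = 0.0071 (Fisher's exact test). No paired analysis was possible because each group has 1 library, so no library could be left out either.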

Other observations

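Calls with no skipping read at their stage were 902 of the 3829 called trios at E18 and 232 of 2420 at P1 over the whole tables, beside 2 of 13 and 6 of 9 in the 10 genes.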
